A study of Mus musculus with 31 samples.

Results

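The genes examined here are 6 genes known for their roles in brown fat, Ucp1, Cidea, Elovl3, Dio2, Prdm16 and Ppargc1a, among 22609 genes counted in mouse masseter muscle. They were selected on the measured level of Ucp1, which was higher in both groups of mice given 0.2U of collagenase than in the vehicle group, and the question was whether the 6 genes move together over mice and treatments. All 6 were found in the files of all 31 mice. Values from the comparisons of 0.2U with vehicle are therefore given as a description with no test, and the other comparisons were tested.

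The masseter is a chewing muscle of the jaw. Male C57BL/6J mice, 2 to 4 months old by the study's methods and with no transgene or mutation named, were injected in the left masseter, and poly(A) RNA of the dissected muscle was sequenced as 1 library per mouse. Complete Freund's adjuvant (CFA), an oil emulsion with killed mycobacteria that provokes inflammation, was given to groups collected at 1d and 5d (3 mice each), with 3 vehicle-treated mice of the same experiment. Collagenase type 2 (Col), an enzyme that degrades extracellular matrix, was given at 0.2U to groups labelled 1C and RPC (4 mice each) and at 10U to groups labelled 2d, 6d and 12d (4, 3 and 4 mice), with 3 vehicle-treated mice. The study's text gives 1d and 14d where the labels give 2d and 12d, and the labels are used as names here. They do not say on which day groups 1C and RPC were collected. The study's dissection took the whole depth of the muscle and left out the attached tendons as far as possible.

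Brown fat is a tissue that burns fatty acids to make heat. Ucp1 lets protons leak across the inner mitochondrial membrane, so that respiration yields heat instead of ATP. Cold acts through noradrenaline and cAMP on brown adipocytes, and Dio2 then makes the active thyroid hormone inside the cell while Ppargc1a, a coactivator, drives mitochondrial genes. Prdm16 is a transcriptional regulator that steers precursors shared with muscle to a brown fat identity. Elovl3 lengthens fatty acids and Cidea coats lipid droplets, and both are also products of the sebaceous gland of the skin. Ppargc1a and Prdm16 are also made in muscle, endothelium and other tissues, so only Ucp1 among the 6 is restricted to thermogenic fat.

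Ucp1 lies on chromosome 8 at 85814247 to 85822355 on the plus strand of mouse build mm9, and its exons span 1644 bp. Elovl3 lies on chromosome 19 at 46206387 to 46210184 on the plus strand and overlaps Pitx3 on the opposite strand. Dio2 lies on chromosome 12 at 91962994 to 91976878, Prdm16 on chromosome 4 at 153690234 to 154010982, and Ppargc1a on chromosome 5 at 51845488 to 51958964, all on the minus strand. Cidea overlaps the noncoding gene B430212C06Rik on the opposite strand. Of the windows of 50 bases in their transcripts, 0% occurred in transcripts of another gene for 5 of the 6 genes and 0.02% for Ppargc1a.

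Promoters are shown because the transcription of Ucp1, Dio2 and Ppargc1a is known to answer to cAMP. RefSeq promoters of build GRCm38.p6 were searched for 4 of the 6 genes, and Cidea and Elovl3 were not searched. The 250 bases before the start of 3 of the 4 are printed 5′ to 3′ on the strand of the gene. They are chr8:83290098-83290347 on the plus strand for Ucp1, and chr12:90739039-90739288 and chr5:51567726-51567975 on the minus strand for Dio2 and Ppargc1a. Capitals mark TGACG on either strand, the core of the cAMP response element.
Ucp1: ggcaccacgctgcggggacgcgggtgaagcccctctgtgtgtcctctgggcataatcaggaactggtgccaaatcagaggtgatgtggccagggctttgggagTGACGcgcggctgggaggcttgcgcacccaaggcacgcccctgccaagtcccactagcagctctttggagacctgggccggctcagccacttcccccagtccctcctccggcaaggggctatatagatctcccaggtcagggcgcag
Dio2: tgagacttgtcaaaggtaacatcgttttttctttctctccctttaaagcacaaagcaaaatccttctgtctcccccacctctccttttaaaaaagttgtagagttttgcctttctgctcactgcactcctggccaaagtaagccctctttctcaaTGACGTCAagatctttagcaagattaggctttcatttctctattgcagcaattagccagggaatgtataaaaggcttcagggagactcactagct
Ppargc1a: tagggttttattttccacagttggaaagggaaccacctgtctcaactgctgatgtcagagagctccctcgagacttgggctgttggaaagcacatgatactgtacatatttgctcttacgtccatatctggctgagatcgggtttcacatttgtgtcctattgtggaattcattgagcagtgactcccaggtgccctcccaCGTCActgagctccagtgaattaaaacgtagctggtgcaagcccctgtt

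The motif TGACG was found in the windows of Ucp1, Dio2 and Ppargc1a and not in that of Prdm16, and 17.9% of 32536 different promoter windows of the same length held it. The full palindrome TGACGTCA, which contains TGACG on both strands, was found in the window of Dio2 alone, and 1.56% of all windows held it. The DR1 direct repeat that the PPAR and RXR pair binds, searched on both strands, was in none of the 4 windows and in 0.0338% of all. Such matches describe letters and not bound sites.

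Between 14843778 and 29076671 reads were counted on genes per library, with a median of 20834472, and values per mouse are CPM, counts relative to the library's total after edgeR's TMM scaling. In these units 3 counts were worth 0.103 to 0.229 CPM. The sum of 10 skeletal muscle genes ranged from 32960 to 200100 CPM over all mice, and none of the 10 genes was at 0 in any group. It was 82860 to 109900 CPM in group 1C and 78670 to 101000 CPM in group RPC, against 108800 to 169400 CPM in Col vehicle. The sum of 11 genes of the salivary gland, a gland that lies beside the masseter, ranged from 10.8 to 148100 CPM over all mice, and was highest in group RPC, at 11970 to 148100 CPM. The 11 libraries of 10U Col stood apart in their share of ambiguous reads, those that overlap more than 1 gene and are counted for none. This share was 0.331 to 0.399% against 0.076 to 0.138% in the other 20 libraries, and the sources do not say why. Treatment with 10U Col and whatever lies behind this difference cannot be told apart. In bulk muscle, fewer cells of a type and less RNA per cell cannot be told apart either.

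Ucp1 ranged from 0 to 399 CPM over all mice. In group 1C it reached 217, 5.15, 168 and 399 CPM in mice 1 to 4, and in group RPC 86.9, 130, 113 and 43.5 CPM. Mice given vehicle for Col, 3 in number, had 0.0436, 1.53 and 2.01 CPM. Thus 7 of 8 mice given 0.2U had at least 43.5 CPM, while mouse 2 of group 1C lay within the range of the mice not given 0.2U. All 8 mice lay above all 3 vehicle-treated mice.

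Outside the 0.2U groups Ucp1 was low and uneven. It was counted at 18.9, 0.137 and 2.03 CPM at 10U 6d, at 0.324, 0, 0.222 and 6.59 CPM at 10U 2d, and at 1.97, 4.65, 1.24 and 0.634 CPM at 10U 12d. In the CFA experiment it was at 0, 0 and 2.02 CPM in the vehicle group, at 0.0409, 0 and 1.03 CPM at 1d, and at 0 counts in all 3 mice at 5d. A count of 0 allows up to 3 counts, and this covers counting error only. In the order of group means, only RPC and 10U 6d among neighbours did not overlap.

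Cidea, whose protein helps lipid droplets fuse, followed Ucp1 closely over mice. It was at 158, 5.72, 110 and 314 CPM in group 1C, with the mice in the same order as for Ucp1, and at 56.6, 44.2, 40.8 and 17.8 CPM in group RPC. Vehicle-treated mice had 0.61, 2.79 and 3.49 CPM. The highest mouse outside the 0.2U groups was the same for Ucp1 and Cidea, mouse 1 at 10U 6d with 20.97 CPM of Cidea. At 5d post-CFA all 3 mice had 0.234 to 0.476 CPM, below the 1.58 to 6.93 CPM of their vehicle group.

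Elovl3, the fatty acid elongase, had different levels in most mice of the 0.2U groups. It was at 53.7, 0.525, 40.5 and 48.1 CPM in group 1C but at 0.814, 1.07, 1.28 and 0.424 CPM in group RPC, where Ucp1 was at least 43.5 CPM in every mouse. Vehicle-treated mice of both experiments had at most 2 counts of Elovl3. Against 3 counts per vehicle library, the mean of group 1C was at least 231-fold higher and that of group RPC at least 5.79-fold higher. The mouse with the highest Elovl3 outside the 0.2U groups was mouse 3 at 1d post-CFA, with 10.9 CPM beside 1.03 CPM of Ucp1.

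Dio2, the deiodinase that activates thyroid hormone, was at 25.8, 5.72, 30.4 and 67.6 CPM in group 1C and at 17.0, 13.1, 8.77 and 6.55 CPM in group RPC, against 3.62, 2.53 and 6.63 CPM in the vehicle group. The lowest mouse of group 1C was again mouse 2. RPC overlapped the vehicle group by its lowest mouse.

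Prdm16, the regulator of brown fat identity, was the steadiest of the 6, with group means between 9.30 and 19.8 CPM. It was at 20.6, 14.4, 20.9 and 21.5 CPM in group 1C and at 15.5 to 17.0 CPM in group RPC. The vehicle group, at 16.4 to 18.5 CPM, overlapped both.

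Ppargc1a, the mitochondrial coactivator, had its highest mean in group RPC. It was at 116, 68.6, 637 and 260 CPM there, above all vehicle-treated mice, which had 46.5, 37.5 and 62.8 CPM. Group 1C, with higher mean Ucp1, had 41.0, 63.9, 60.7 and 77.8 CPM and overlapped vehicle. Within group RPC the mouse with most Ppargc1a, mouse 3, was not the mouse with most Ucp1, which was mouse 2.

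**Figure D1:**
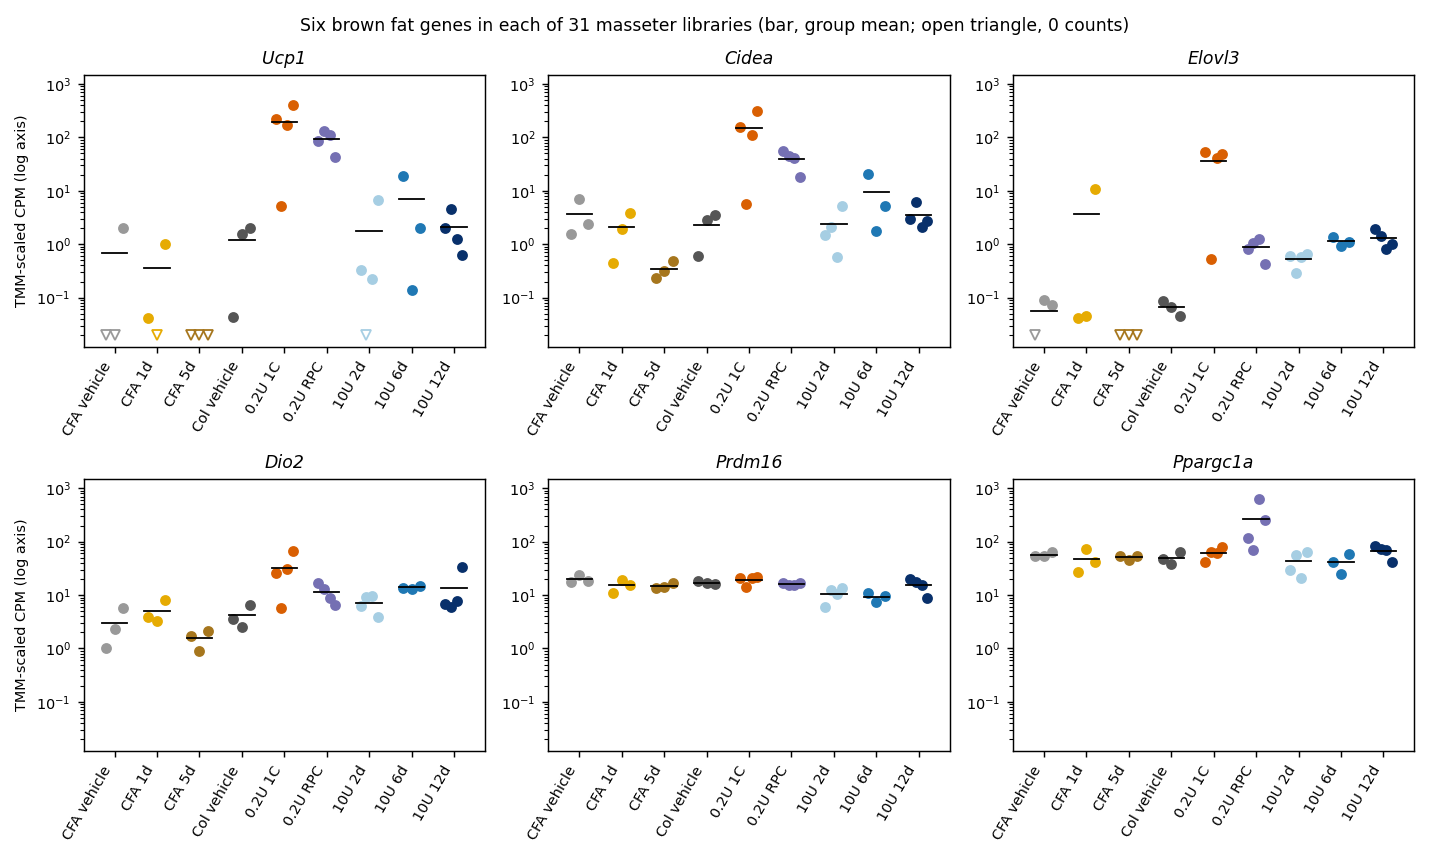
CPM of the 6 genes in each mouse, on a log axis, by group; points are mice, bars are group means and open triangles are 0 counts, drawn at the foot of the axis. Ucp1 and Cidea are high in 7 of 8 mice given 0.2U Col, Elovl3 in 3 mice of group 1C, and Ppargc1a in group RPC, while Prdm16 stays between 5.88 and 23.6 CPM in all mice.

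The fitted log2 fold changes against Col vehicle put the 6 genes in a different order in each group. In group 1C they were 8.95 for Elovl3 (SE 1.71), 7.38 for Ucp1 (SE 1.63), 6.01 for Cidea (SE 1.34), 2.93 for Dio2 (SE 0.78), 0.32 for Ppargc1a and 0.18 for Prdm16. In group RPC they were 6.30 for Ucp1 (SE 0.90), 4.13 for Cidea (SE 0.65), 3.64 for Elovl3 (SE 0.62), 2.47 for Ppargc1a (SE 0.75), 1.41 for Dio2 and -0.07 for Prdm16. These fits put the vehicle group of Elovl3 at a few counts, so its values depend on the prior count and are no bounds. Of the 6 genes, 3 lay above all vehicle-treated mice in group 1C, where 4.22% of 14493 tested genes did, and 4 in group RPC, where 4.79% of 14269 did. Since Ucp1 was used to choose the genes in these comparisons, nothing is read from these counts.

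Per exon length, the 6 genes changed their order. In RPKM, which is CPM per kilobase of exon, Ppargc1a led in the Col vehicle group at 7.37, followed by Cidea at 1.97 and Prdm16 at 1.84, with Ucp1 at 0.727 and Elovl3 at 0.0352. In group 1C Cidea led at 126 RPKM with Ucp1 at 120, and in group RPC Ucp1 led at 56.8 RPKM, with Ppargc1a at 40.7 and Cidea at 34.2. The ratio of Ucp1 to Cidea per length was 0.637 to 1.09 in the 4 mice of group 1C and 1.09 to 2.08 in those of group RPC. The ratio of Ucp1 to Elovl3 was 4.61 to 11.2 in group 1C and 101 to 139 in group RPC, with no overlap. Mouse 2 of group 1C, at 0.637 and 11.2, was at the edge of its group in both ratios. The other ratios varied more in group 1C, at 3.18 to 29.7 for Ucp1 to Dio2, 2.03 to 105 for Ucp1 to Prdm16 and 0.326 to 21.3 for Ucp1 to Ppargc1a, each lowest in mouse 2.

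Groups 1C and RPC were then compared directly, with edgeR's quasi-likelihood test. None of 14570 tested genes was called at a Benjamini-Hochberg adjusted p under 0.05 (percent called, 0.0), although 1458 (10.0%) had an unadjusted p under 0.05. Elovl3 was higher in group 1C by 5.33 on the log2 scale (SE 1.12, adjusted p = 0.244) and Ppargc1a lower (log2 fold change -2.13, SE 0.63, adjusted p = 0.339). The adjusted p for Elovl3 was 0.00029 without mouse 2 of group 1C, 0.000165 in DESeq2 and 0.029 in 1 edgeR fit of all libraries. For Ppargc1a it was 0.0109 in DESeq2 and 0.0359 in the shared fit. Cidea, with a log2 fold change of 1.89, and Dio2, with 1.52, were not called in edgeR. Thus 3 mice of group 1C lay above all of group RPC for Elovl3 while mouse 2 lay within it.

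Other genes of brown fat were mixed. Of a list of 21 further genes, 18 were tested in group 1C against vehicle, 13 with a positive and 5 with a negative log2 fold change, and their median was 0.35 against 0.01 for all genes. In group RPC 10 of 17 were positive, with a median of 0.14 against 0.01. Of the genes tested, 2 lay above all vehicle-treated mice in group 1C, and 7 above and 1 below in group RPC, where 4.22% and 4.79% of all genes lay above. Ppara, a fatty acid sensor that also acts in muscle, was at 42.2 to 72.5 CPM in group RPC against 22.4 to 38.2 CPM in vehicle. The list was chosen with results of these data known.

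Several membrane protein genes of the list had higher means in both groups, while P2rx5 overlapped vehicle. Only 2 of the 18 tested list genes lay above all vehicle-treated mice in group 1C. Most of the genes with higher means named here therefore overlapped vehicle in that group. The proton channel gene Otop1 had a mean of 8.34 CPM in group 1C (1.34 to 15.7) and of 4.52 CPM in group RPC (2.97 to 7.32) against 1.03 CPM in vehicle (0.851 to 1.20). The potassium channel gene Kcnk3 was at 23.1 and 11.8 CPM against 2.69, and the amino acid transporter gene Slc36a2 at 50.5 and 31.02 CPM against 12.1. Adrb3, the receptor through which noradrenaline acts on fat, was at 6.18 and 9.09 CPM against 1.59. Slc27a2, a fatty acid transport protein, had a mean of 99.3 CPM in group 1C, but a median of 16.2, and 73.9 CPM in group RPC against 0.20.

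Transcription factors of brown fat precursors overlapped vehicle or were lower. Zic1, a marker of classical brown fat, was at 0.623 and 0.621 CPM in groups 1C and RPC against 0.644 CPM in vehicle. Ebf2 was at 7.54 to 14.2 CPM in group 1C and 4.83 to 9.72 CPM in group RPC against 6.78 to 14.3 CPM in vehicle. Tbx1, a marker of beige fat that muscle also expresses, had lower means, at 37.6 and 34.7 CPM against 52.3. Cox7a1, Cox8b and Cpt1b, which brown fat shares with muscle, had means of 228, 252 and 5.38 CPM in group 1C against 314, 328 and 7.42 CPM in vehicle.

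**Figure D2:**
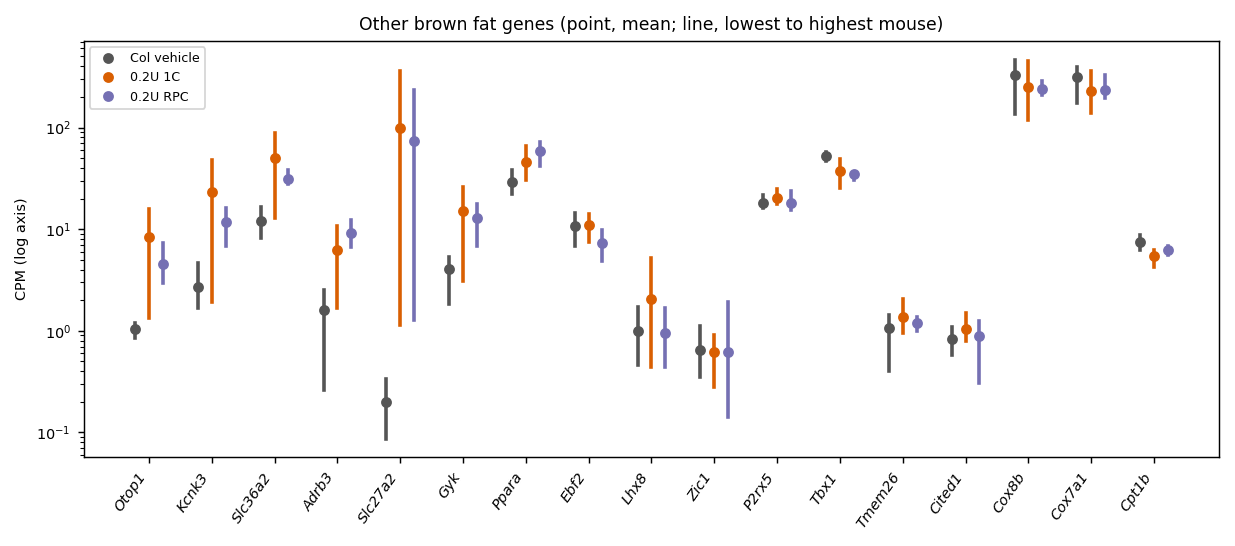
CPM (log axis) of 17 other brown fat genes in the Col vehicle group and both 0.2U groups; points are group means and lines run from the lowest to the highest mouse. Otop1, Kcnk3, Slc36a2 and Adrb3 have higher means in both 0.2U groups, but only 2 of 18 tested list genes lie above all vehicle-treated mice in group 1C. Zic1, Ebf2, P2rx5 and Cited1 overlap vehicle.

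General fat cell genes mostly had higher means in the 0.2U groups. Of 19 adipocyte genes, 16 in group 1C and 18 in group RPC had a positive log2 fold change against vehicle, with medians of 1.08 and 0.93. Their summed level was 3803 to 7227 CPM in group 1C and 4185 to 5672 CPM in group RPC against 3797 to 4035 CPM in vehicle, and none of the 19 genes was at 0 in all mice of any of these groups. Of the 19 genes, 1 lay above all vehicle-treated mice in group 1C and 9 in group RPC, beside 4.22% and 4.79% of all genes. Pck1, an enzyme of glycerol synthesis, had log2 fold changes of 2.34 and 2.17 and Adig, an adipocyte membrane protein, of 2.33 and 1.77. Of 18 tested lipogenic genes, 14 were positive in each group. Scd1, the stearoyl desaturase, had means of 2238 CPM in group 1C (203 to 4458) and 1295 CPM in group RPC (874 to 1582). In vehicle its mean was 340 CPM (148 to 604), so group 1C overlapped vehicle. The part of fat cell and lipogenic genes in the levels of the 6 genes was not tested.

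Skin and cartilage genes were high in group 1C. The sum of 7 sebaceous gland genes, without Cidea and Elovl3, was at 561, 3.96, 414 and 573 CPM in mice 1 to 4 of group 1C, at 3.72 to 11.9 CPM in group RPC and at 3.05 to 4.99 CPM in vehicle. None of these 7 genes was at 0 in all mice of any of these groups. Mouse 2, the mouse of group 1C low in Ucp1, Cidea and Elovl3, was low here too. Scd3, a desaturase of the sebaceous gland, had a mean of 142 CPM in group 1C, 0.961 in group RPC and 0.296 in vehicle. Far2, which makes wax alcohols, was at 96.9, 0.933 and 0.674 CPM. The sum of 13 keratinocyte genes was 338 to 995 CPM in group 1C, 153 to 693 CPM in group RPC and 82.8 to 236 CPM in vehicle, with Krt77 the only one at 0 in vehicle. The sum of 7 cartilage genes was 140 to 268 CPM, 4.11 to 42.5 CPM and 2.73 to 22.8 CPM, with Matn1 the only one at 0 in RPC and vehicle. In mouse 2 of group 1C the cartilage sum was 214.5 CPM, within the range of the other mice of the group. The sum of 8 bone genes was 131 to 471 CPM in group 1C, 52.8 to 245 CPM in group RPC and 45.5 to 260 CPM in vehicle. The part of these tissues in the levels of the 6 genes was not tested.

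The mouse with Elovl3 at 10.9 CPM, mouse 3 at 1d post-CFA, had a sebaceous sum of 25.3 CPM, and no other mouse outside group 1C had over 11.9 CPM. In group RPC, where Elovl3 was at 0.424 to 1.28 CPM, the sebaceous sum was 6.70, 8.48, 11.9 and 3.72 CPM in mice 1 to 4, and 3 of these lay above all vehicle-treated mice.

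**Figure D3:**
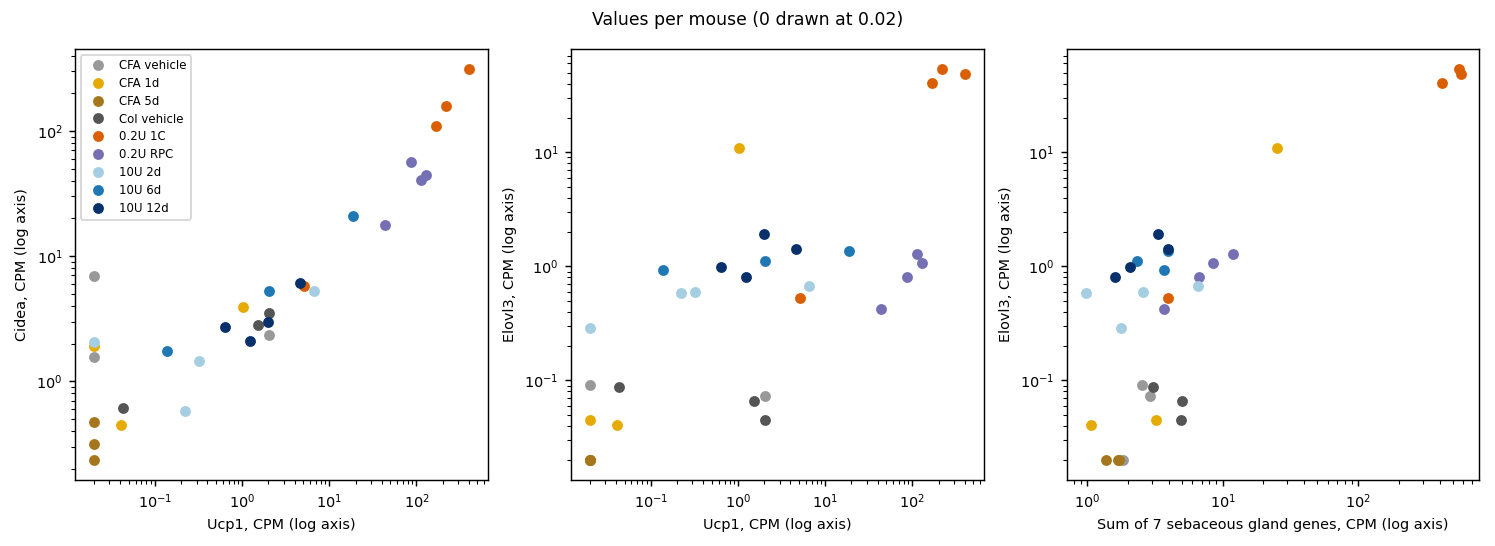
Values of each mouse, all on log axes in CPM, with values of 0 drawn at 0.02 and colours for groups; the panels plot Cidea against Ucp1, Elovl3 against Ucp1 and Elovl3 against the sum of 7 sebaceous gland genes. Cidea is high where Ucp1 is high in both 0.2U groups, while the 4 mice of group RPC, with Ucp1 at 43.5 to 130 CPM, have Elovl3 between 0.424 and 1.28 CPM.

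Whether the genes move together was tested over the 23 mice that were not given 0.2U, by Pearson's r of log2 CPM and Spearman's rho. Both had permutation p-values adjusted by the Benjamini-Hochberg method over 20 relations. The 20 include the relations over the mice given 0.2U, whose Ucp1 was used to choose the genes. Their small p-values can lower the adjusted p of others, which was not recomputed without them. The sets of 23 and 14 mice include the Col vehicle mice, whose low Ucp1 was also used to choose the genes. Ucp1 and Cidea rose together (r = 0.74, adjusted permutation p = 0.001; rho = 0.70, adjusted p = 0.0033), and r was 0.63 without the 2 mice farthest from the median of Ucp1. Within the Col experiment without 0.2U, r was 0.86 over 14 mice (adjusted permutation p = 0.001), rho was 0.92 (adjusted permutation p = 0.0006), and r was 0.90 without the 2 farthest mice. Within the 11 mice given 10U, whose shares of ambiguous reads were alike, r was 0.84 (permutation p = 0.00087). Within the CFA experiment, where 6 of 9 mice had no count of Ucp1, r was 0.42 (exact permutation test, adjusted p = 0.425; rho = 0.35, adjusted p = 0.48). Without the 2 farthest mice it was -0.24, a value set by 1 mouse with 1 count of Ucp1. The relation therefore held in the Col experiment without its extreme mice. In the CFA experiment it did not pass the test, and too few mice had counts of Ucp1 to decide.

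Elovl3 and Dio2 were related to Ucp1 over the pooled 23 mice, and neither relation passed the test over the 14 mice of the Col experiment. For Elovl3, r was 0.59 over 23 mice (adjusted permutation p = 0.0181; rho = 0.66, adjusted p = 0.00507), 0.57 without the 2 farthest mice, and 0.37 over the 14 mice of the Col experiment (adjusted permutation p = 0.316; rho = 0.45, adjusted p = 0.174). Within the 11 mice given 10U alone r for Elovl3 was 0.67 (permutation p = 0.0238). For Dio2, r was 0.50 over 23 mice (adjusted permutation p = 0.0397; rho = 0.53, adjusted p = 0.0298), 0.47 without the vehicle-treated mice (permutation p = 0.0544) and -0.03 over the 14 mice (adjusted permutation p = 0.927; rho = -0.03, adjusted p = 0.916). In the CFA experiment r was 0.76 for Dio2 (exact permutation test, adjusted p = 0.0397; rho = 0.82, adjusted p = 0.0298) and 0.58 without the 2 farthest mice, and 0.62 for Elovl3 (exact permutation test, adjusted p = 0.238; rho = 0.60, adjusted p = 0.174), which was 0.25 without them. The relations of Prdm16 and Ppargc1a with Ucp1 passed the test in none of these 3 sets, with pooled r of -0.06 (adjusted permutation p = 0.927; rho = -0.14, adjusted p = 0.603) and 0.23 (adjusted permutation p = 0.425; rho = 0.20, adjusted p = 0.48). For Ppargc1a, r without the 2 farthest mice was 0.27 over the pooled mice and 0.73 in the Col experiment (0.43 with all mice). In the CFA experiment it was -0.89 (0.02 with all mice), so its sign and size rested on few mice. Each r of the CFA experiment without the 2 farthest mice was set by 1 mouse with 1 count of Ucp1.

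Within the 8 mice given 0.2U the relations are a description with no test, since the level of Ucp1 in these mice was used to choose the genes. Over the 8 mice r with Ucp1 was 0.95 for Cidea, 0.81 for Dio2, 0.76 for Prdm16, 0.70 for Elovl3 and -0.07 for Ppargc1a. Spearman's rho was 0.93, 0.90, 0.76, 0.93 and -0.38 in the same order. Without the 2 mice farthest from the median of Ucp1, r was 0.92 for Cidea, 0.81 for Dio2, 0.59 for Prdm16, 0.83 for Elovl3 and -0.61 for Ppargc1a. Mouse 2 of group 1C is the low point of these values.

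Over all 31 mice, the gene most like Ucp1 among 15525 ranked genes was Cidea, with a Pearson's r of 0.92. Scd1 followed with 0.88, then Gm9899 with 0.87, Abca12 with 0.86, Aspg and 1300015D01Rik with 0.85, and Cpn2, Gm6484, Kng2 and Nrg4 with 0.84. Abca12 exports lipids in keratinocytes and Nrg4 is a growth factor secreted by brown fat. The other members stood at ranks 133 (Elovl3), 208 (Dio2), 1054 (Ppargc1a) and 3319 (Prdm16). The genes most like Elovl3 were Far2, Elovl6 and Elovl4, those most like Cidea were Gys2, Ucp1 and Aspg, and those most like Ppargc1a were Fnip1, Ppara and Pde3a. Those most like Dio2 were Pls3, Hephl1 and Col27a1, and those most like Prdm16 were Lpl, Ephx2 and Gnao1. The order rests largely on the 0.2U mice, whose Ucp1 was used to choose the genes. Over the 23 other mice r was 0.74 for Cidea, 0.62 for Scd1, 0.67 for Abca12, 0.52 for Gm9899, 0.47 for Aspg, 0.46 for Kng2 and 0.53 for Nrg4. These values describe patterns over libraries that also share depth, dissection and group.

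Genes of the same protein families are given for comparison. Ucp3, the uncoupling protein of muscle, had group means of 61.2 to 185 CPM, and Ucp2 of 44.0 to 142 CPM. In the 0.2U groups Ucp2 had log2 fold changes of 0.70 and 0.57 against vehicle, where Ucp1 had 7.38 and 6.30. Cidec, the CIDE protein of white fat, was at 83.9 CPM in group 1C and 66.9 CPM in group RPC, with log2 fold changes of 1.84 and 1.504. Elovl4, which makes very long fatty acids of the skin barrier, was at 5.58 to 527 CPM in group 1C and 1.74 to 10.5 CPM in group RPC against 2.37 to 3.46 CPM in vehicle. Dio3, the deiodinase that inactivates thyroid hormone, was at 3.17 CPM in group 1C, 0.615 CPM in group RPC and 0.348 CPM in vehicle.

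The 10U groups were compared with vehicle to see the 6 genes at the higher dose. The vehicle group, with its low Ucp1, is shared with the comparisons that chose the genes. At 6d, 27.3% of 14281 tested genes were called, and Dio2, Prdm16 and Elovl3 were among them. Dio2 was at 13.8, 13.1 and 14.9 CPM in the 3 mice against 3.62, 2.53 and 6.63 CPM in vehicle, with no overlap, and rose by 1.67 on the log2 scale (SE 0.37, edgeR adjusted p = 0.0181). Prdm16 fell to 7.29 to 10.8 CPM from 16.4 to 18.5 CPM, with no overlap (log2 fold change -0.90, SE 0.21, adjusted p = 0.0223). Of all tested genes 47.2% did not overlap vehicle at 6d. Elovl3 rose to 0.924 to 1.38 CPM from at most 2 counts, at least 7.36-fold (adjusted p = 0.00427). It passed the count filter through the mice at 6d alone, and with no filter its adjusted p was 0.0044. Ucp1 had a log2 fold change of 2.54 (SE 1.53, adjusted p = 0.236), which was -0.15 without mouse 1. Cidea was at 2.01 (SE 0.94, adjusted p = 0.141) and Ppargc1a at -0.26. The calls of Dio2 and Prdm16 were lost without any 1 of the 3 mice at 6d and without vehicle mouse 1, with adjusted p of at most 0.0924. Elovl3 had too few libraries with 10 counts to be tested when a mouse at 6d was left out, and in 1 edgeR fit of all libraries Prdm16 alone was called, with adjusted p of 0.0638 for Elovl3 and 0.07 for Dio2. Genes of other tissues moved in the same mice, and their part was not tested. The sum of 5 slow muscle genes was 333 to 781 CPM at 6d against 7.45 to 20.4 CPM in vehicle, with 3 of 5 called higher. Of 11 tested keratinocyte genes 7 were called lower, as were 4 of 7 bone genes and 3 of 10 skeletal muscle genes, and the salivary sum was 10.8 to 31.7 CPM against 66.1 to 55880 CPM.

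At 12d, 1.23% of 14176 tested genes were called, and Elovl3 was the only one of the 6 genes. It was at 0.808 to 1.92 CPM, at least 8.29-fold above vehicle (adjusted p = 0.0162 in edgeR), having passed the count filter through the mice at 12d alone, and the call was lost without mouse 1 or 2 at 12d or vehicle mouse 2, with adjusted p of 0.0516 to 0.0632. In a blocked fit by replicate its adjusted p was 0.0815. Dio2 was at 6.88, 5.99 and 7.81 CPM in 3 mice and at 33.9 CPM in mouse 4. At 2d, 2.22% of 14373 tested genes were called and none of the 6, and Elovl3 was at 0.285 to 0.667 CPM (log2 fold change 2.86, edgeR adjusted p = 0.054). In DESeq2 Elovl3 was called there, with an adjusted p of 0.0295. As at 6d and 12d, the gene passed the count filter through the treated mice alone. Prdm16 was at 5.88, 12.5, 10.4 and 13.7 CPM at 2d (log2 fold change -0.73, SE 0.29, edgeR adjusted p = 0.128). It lay below all vehicle-treated mice, as did 10.8% of all tested genes. The adjusted p of Prdm16 was 0.0238 in 1 fit of all libraries and 0.0498 without mouse 4.

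Elovl3 was above all vehicle-treated mice in all 11 mice given 10U, at 0.285 to 1.92 CPM, and it shares exon sequence with Pitx3 on the opposite strand. At 2d, 6d and 12d, 13.4%, 26.0% and 9.16% of all tested genes lay above vehicle. Pitx3, a transcription factor that muscle expresses, had means of 6.28, 8.75 and 9.44 CPM at 2d, 6d and 12d and of 5.54 CPM in vehicle. Across the annotation, 179 tested genes overlap exons of an opposite-strand gene with at least 20 times their mean level, and their median log2 fold change at 10U 6d was 0.63, with 74.3% of them higher, against 0.00 and 50.03% for the other genes. Elovl3 itself is not among these genes, since Pitx3 was below that level, which was taken over all mice. The mean of Elovl3 was 35.7 CPM in group 1C but 0.0661 CPM in Col vehicle, where Pitx3 had 5.54 CPM. At 2d and 12d the medians of the opposite-strand genes were 0.34 and 0.22. In groups 1C and RPC they were 0.17 and 0.02, and -0.10 and 0.05 at 1d and 5d post-CFA. The part of opposite-strand reads in the level of Elovl3 was not tested.

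**Figure D4:**
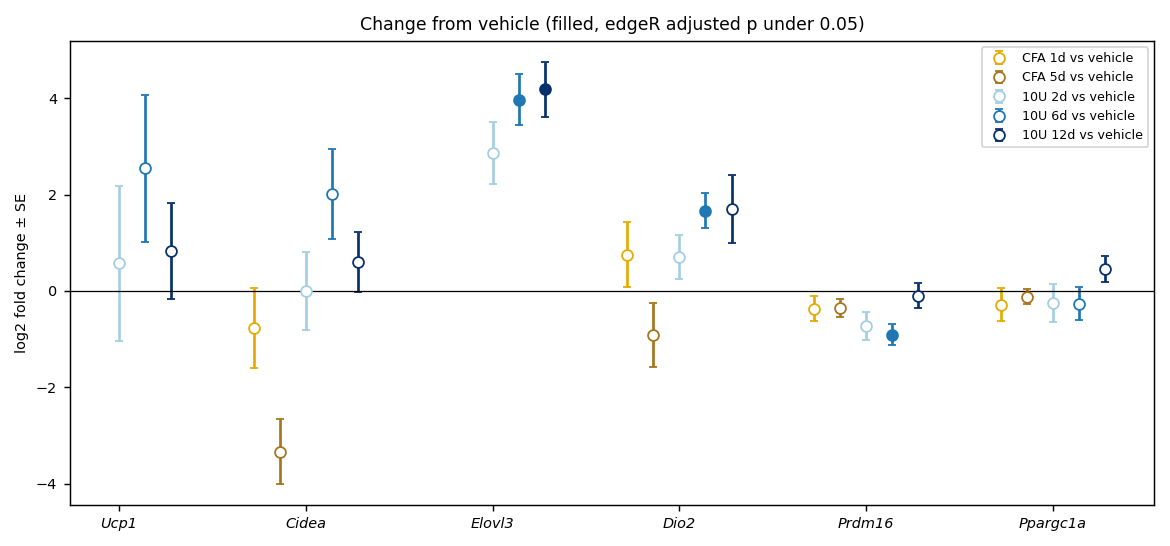
Log2 fold change of the 6 genes against the vehicle group of the same experiment, with SE as error bars, in the comparisons that were tested; filled points have an edgeR adjusted p under 0.05. Elovl3 is filled at 10U 6d and 12d, Dio2 and Prdm16 at 6d, and genes with too few counts to be tested have no point.

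Between days of 10U Col no member was called in edgeR. For 6d against 2d 8.73% of 14513 genes were called, for 12d against 6d 26.4% of 14344, and for 12d against 2d 8.75% of 14459. Ucp1 differed by 1.95 on the log2 scale between 6d and 2d, and mouse 4 at 2d, at 6.59 CPM, held most of the Ucp1 of its group. For 12d against 2d, Ucp1 had a log2 fold change of 0.29 (SE 1.27, edgeR adjusted p = 0.878), which was 3.53 without that mouse (adjusted p = 0.0203) and -0.41 to 0.52 without any other. Prdm16 had a log2 fold change of 0.95 for 12d against 6d without mouse 4 at 12d, with an adjusted p of 0.00378. Dio2 had -1.01 there, with an adjusted p of 0.00132.

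Other genes of these pathways at 10U 6d are given by the lists, whose counts stand beside the 27.3% called over all genes. Of 19 adipocyte genes, 10 fell and 0 rose, among them Plin4, a lipid droplet coat protein, by 2.14 and Slc2a4, the insulin-dependent glucose transporter, with a log2 fold change of -1.83. Of 17 tested further brown fat genes, 4 fell and 1 rose, a share near that of all genes. Fgf21, a hormone of metabolic stress made by liver, fat and muscle, had a mean of 3.52 CPM, at least 22.75-fold above vehicle, where it had at most 1 count, and it passed the count filter through the mice at 6d alone. Of 10 tested genes of other muscle heat pathways, 3 rose and 1 fell, with Sln, the regulator of the calcium pump that wastes ATP in muscle, at 184 CPM (log2 fold change 6.76, SE 0.72, adjusted p = 0.00246). Of 13 PGC-1 pathway genes, 2 fell, Esrra and Vegfb, and 0 rose. Of 10 partners of Prdm16, none was called at 6d, while Cebpb, a transcription factor of early fat cell development and inflammation, rose at 2d by 3.10 and at 12d by 2.37. Adrb1, an adrenergic receptor gene, fell at 6d to a mean of 0.177 CPM from 4.33 CPM (edgeR adjusted p = 0.0237). The higher share of ambiguous reads in the 10U libraries stands beside all of these.

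In the CFA experiment none of the 6 genes was called. At 1d, 0.0% of 13944 tested genes were called and 588 (4.22%) had an unadjusted p under 0.05, with 0 members among them. At 5d, 1.11% of 14026 were called. Ucp1 and Elovl3 had too few counts to be tested at either day. Cidea had a log2 fold change of -3.33 at 5d (SE 0.67, edgeR adjusted p = 0.0717), with an adjusted p of 0.000255 in DESeq2. The salivary sum was 53380 to 71790 CPM in these 3 mice against 72.1 to 8243 CPM in vehicle, and its part was not tested. Of the 9 tested salivary genes, 9 lay above all vehicle-treated mice, as did 12.8% of all tested genes. Of 19 adipocyte genes, 18 had negative values there, while Agt, the precursor of angiotensin, rose by 3.51.

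The changes of Cidea at 5d post-CFA and at 10U 6d, from different experiments and unlike days, were set against each other. Neither was called alone (edgeR adjusted p of 0.0717 and 0.141). The log2 fold change of Cidea at 5d post-CFA was 5.44 below that at 10U 6d (log2 difference -5.44, SE 1.58, edgeR interaction adjusted p = 0.0284, with 1589 of 15526 genes called). The salivary genes at 5d post-CFA and the ambiguous reads of the 10U libraries stand beside this difference. The differences of Dio2 (-2.64), Ppargc1a (0.06) and Prdm16 (0.48) had adjusted p of 0.0962 to 0.977, and none is given for Ucp1 and Elovl3, which had 0 counts at 5d post-CFA. Mouse 1 at 10U 6d carried most of the Cidea in its group, and the mean of the other 2 mice was 3.51 CPM (SD 2.49, n = 2). The interaction was not refitted without mouse 1.

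Between the vehicle groups of the 2 experiments no member was called. Of 14070 tested genes 6 were called (0.0426%), and the 5 tested members had a median log2 fold change of -0.18.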

How the data were processed

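Poly(A) RNA of masseter from 31 mice was sequenced as stranded single-end libraries. The authors deposited raw read counts per gene for each library, and the submitters' processing notes name bcl2fastq, TopHat2, HTSeq and build mm9, with versions not given in the sources used here. The closing lines of the counter (no feature, ambiguous and the like) were left out of library sizes. Counts were normalized by TMM and tested with edgeR 4.0.16 (quasi-likelihood test, a minimum of 10 counts in 3 or more of the libraries compared, Benjamini-Hochberg adjustment over all tested genes, called at an adjusted p under 0.05) in R 4.3.3. DESeq2 1.42.0, its size factors, no filter, 1 fit of all libraries, a replicate block and leaving out each mouse were the alternatives. Log2 CPM used a prior count of 2. Scripts were tested on simulated data.

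The 6 genes and all gene lists were chosen with earlier results of these data known. The genes named are the 6 members, at most 4 genes per list and comparison with the largest change (called ones where tested), the most abundant markers of other tissues, and the 10 genes most like Ucp1. Others named from the lists, such as Zic1, Ebf2, Tbx1, Adrb3 and Ucp2, were picked for their role after their values were seen. Some results for the thyroid hormone and adrenergic lists are not reported here. Replicates are labelled as separate samples, and p-values measure the spread between them.

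Same-numbered mice deviated together in every pair only for 1d post-CFA against its vehicle (r of 0.164 to 0.591) and for the 2 vehicle groups (0.115 to 0.677), from the data and not from a stated pairing. Depth was 14843778 to 29076671 counts per library, and intervals were not drawn from it.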

Additional observations from a re-analysis of the deposited data

Results flagged for a closer look

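The 6 genes were examined in each group of 4 mice, 24 combinations of gene and group that share their mice, and 3 held a mouse far from the others. About 1 in 20 would be flagged by chance if values were normal and independent. Low counts and shared mice break this, so no excess is read from the 3. Ucp1 was at 6.59 CPM in mouse 4 at 10U 2d, a gap of 0.951 of the range of its group. Dio2 was at 33.9 CPM in mouse 4 at 10U 12d, a gap of 0.935 of the range. Prdm16 was at 14.41 CPM in mouse 2 of group 1C, the mouse also lowest in Ucp1, Cidea, Elovl3 and Dio2, a gap of 0.875 of the range.

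The log2 fold change of Cidea at 5d post-CFA and at 10U 6d differed by -5.4351 (SE 1.58, edgeR interaction adjusted p = 0.0284).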

How the results depend on the processing

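No result changed direction past its threshold under any alternative. Shares of all genes called under the alternatives are not given here, so counts of the 6 genes are read as sensitivity alone. The number of the 6 genes called changed as follows. In DESeq2 it was 1 for 10U 2d against vehicle, 5d post-CFA against vehicle, 6d against 2d, 12d against 6d and 12d against 2d (0 in edgeR), and 2 for 1C against RPC (0 in edgeR). In 1 fit of all libraries it was 1 for 2d, 1 for 6d (3 when fitted alone), 0 for 12d (1 when fitted alone), 1 for 12d against 6d and 2 for 1C against RPC. With the replicate block it was 0 for 12d, 1 for 6d against 2d and 3 for 12d against 6d, and it was 2 for 6d, where Prdm16 had an adjusted p of 0.0526, with no change in the other counts. Outside the CFA 1d comparison and that of the vehicle groups, same-numbered mice shared only a number. Without vehicle-treated mice, r with Ucp1 was 0.47 for Dio2 over all mice not given 0.2U (permutation p = 0.0544) and 0.67 for Elovl3 in the Col experiment (permutation p = 0.0238). Leaving out each mouse in turn gave 0 to 1 called genes at 2d, 0 to 3 at 6d, 0 to 1 at 12d, 0 to 1 for 1C against RPC, 0 to 2 for 6d against 2d and for 12d against 2d, and 0 to 3 for 12d against 6d. The log2 fold change of Ucp1 in RPC against vehicle was 5.70 to 7.08, the highest without vehicle mouse 3. The causes were not tested. With Elovl3 at 0 to 2 counts in vehicle, depth allows only the lower bounds given for its folds, and its fitted log2 fold changes are no bounds.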
